A study of Homo sapiens with 8 samples.

Results

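RNA was sequenced from MOLM13, a human cell line established from acute myeloid leukemia, with and without depletion of IGF2BP2, and the comparison described here sets cells given IGF2BP2 back against cells that were never depleted of it. It compares 4 of the 8 libraries of the series: 2 control libraries, whose genotype label is wild type, and 2 rescue libraries, whose genotype label is IGF2BP2 rescue. The members are all 24407 genes with a symbol and a value that is not 0 in every library. Of these, 13016 passed a filter on low values, for which 2 or more of the 8 libraries had to reach 1 ppm of their linear sum, and were tested. The remaining 4 libraries are 2 of IGF2BP2 knockdown cells, whose titles spell the gene IGF2PB2, and 2 of cells rescued with a mutant that the labels do not describe. All 8 libraries enter the filter and the estimate of the spread. With only the control and rescue libraries, 534 genes were called higher and 183 lower, against 640 and 297 with all 8. Knockdown values are given beside the comparison to show whether knockdown libraries differed from control as well. They come from separate samples and are not an earlier time point of the rescue cells.

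Per the labels' protocols the cells grew in RPMI with serum, were infected with virus in polybrene and received puromycin where selection was needed. The labels do not say whether control cells received an empty vector, whether rescue cells still carry the hairpin, whether the cells are clones or pools, or that replicates are separate cultures. Effects of the construct, of its infection and of the returned protein therefore cannot be told apart here, and the p-values speak only of how far these libraries spread, which could be technical.

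Values are log2 levels as deposited, normalized by the authors over all 8 libraries, and a fold given here is 2 raised to a difference of these values. Genes of low level lie closer together on this scale than in the fold changes of the authors, so folds of genes that are low in control are understated. CXCL11, low in control, differed by 2.65 here and by a log2 change of 6.55 in the authors' deposited table, and DHX58 by 3.08 here and 6.28 in the authors' deposited table. Read depth is unknown. Replicates differed with an SD of the log2 difference over genes of 0.212 in control and 0.232 in rescue, and the 10 highest genes held 3.75% to 7.31% of the linear sum. All 10 listed identity markers of acute myeloid leukemia cells passed the filter. Their summed level was 1570 to 1780 ppm in control and 1990 to 2100 ppm in rescue, and PTPRC (the common leukocyte antigen CD45), CSF3R (the G-CSF receptor) and MPO (myeloperoxidase) were the 3 called higher in rescue. PTPRC lost the call without control replicate 1 or rescue replicate 2, at adjusted p up to 0.0532, and MPO lost it without any single control, knockdown or rescue library, at up to 0.189. Of the 10 T and NK cell markers, 8 B and plasma cell markers, 12 erythroid and megakaryocyte markers and 12 epithelial and stromal markers, only 3, 2, 2 and 4 passed the filter. Their summed levels in control and rescue were 42.8 to 43.4 and 42.2 to 45.0 ppm for T and NK cells, 4.13 to 4.45 and 4.76 to 4.99 ppm for B cells, and 46.8 to 50.7 and 46.2 to 46.4 ppm for erythroid cells. PAX5, a B cell factor near the low end of the scale, was the only one of these 3 lists called, from 4.79 and 4.75 in control to 5.30 and 5.39 in rescue. Among defining markers, CD3E, MS4A1, HBA1, HBB, EPCAM and VWF did not pass the filter. Listed interferon genes, low in all libraries, still summed to 3.72 and 3.53 ppm in control. The B cell sums, not far above this, are therefore no measure of abundance.

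IGF2BP2 belongs to a small family of cytoplasmic proteins that bind messenger RNA, including RNA that carries N6-methyladenosine, and stabilize it or promote its translation. PRMT6 is a nuclear enzyme that methylates arginine in histones and other proteins, and MFSD2A is a membrane carrier of lysophosphatidylcholine. Type I interferon is a secreted signal that cells make when their sensors meet foreign or misplaced nucleic acid. It acts through a receptor, JAK kinases and a complex of transcription factors that includes STAT2 and IRF9, which binds a short promoter element and induces a large set of antiviral genes.

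IGF2BP2 (chr3:185643739-185825056, minus strand, GRCh38) had log2 values of 10.94 and 10.89 in control, 10.24 and 10.25 in knockdown, and 11.36 and 11.13 in rescue. Both rescue libraries lay above both control libraries, and both knockdown libraries lay below. Rescue minus control was 0.33 (SE 0.13), which did not pass the test with an adjusted p of 0.175. Rescue minus knockdown was 1.00 (SE 0.13, adjusted p = 0.00327). These gene-level values cannot part the transcript of the cells' own gene from that of the construct. In bulk RNA, for this and every gene below, a change in RNA per cell and a change in the share of cells that express it cannot be told apart.

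PRMT6 (chr1:107056679-107067636, plus strand) had values of 9.39 and 9.30 in control, 8.20 and 8.08 in knockdown, and 8.81 and 8.70 in rescue. The groups did not overlap, with rescue between the other two. Rescue minus control fell by 0.59 (SE 0.11, adjusted p = 0.0142), and it was no longer called when either control library or rescue replicate 2 was left out, at adjusted p up to 0.117. Rescue minus knockdown was 0.62 (adjusted p = 0.0157). MFSD2A (chr1:39955112-39969968, plus strand) stood at 8.51 and 8.53 in control, 9.05 and 8.97 in knockdown, and 9.0 and 8.73 in rescue. Its rescue minus control of 0.35 (SE 0.13) had an adjusted p of 0.173 and its rescue minus knockdown of -0.15 one of 0.61, so its rescue libraries, above both control libraries, were not separated from either group by the test.

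Rescue libraries did not match the control profile. The largest differences were increases of interferon-stimulated genes, reaching 152-fold on the deposited scale, while the listed effectors among them differed by at most 1.02 on the log2 scale between knockdown and control. A second group of differences, among monocyte and lysosomal genes, was also seen in knockdown minus control. List medians were 0.63 and 0.65 there and 0.57 and 0.47 in rescue minus control. Both differences use the same control libraries, so their likeness is partly built in. A smaller group fell in rescue, among them CPT1A, HMGCS1 and genes of ribosomal proteins. In knockdown minus control HMGCS1 was also called lower (-0.73), and the median of the ribosomal list was -0.29. CPT1A was not called there (0.24). These differences share the control libraries too.

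Rescue minus control was called higher for 640 genes (4.92% of those tested) and lower for 297 (2.28%), at an adjusted p under 0.05 from limma. Counts of called members in the lists below are to be read beside these shares. For knockdown minus control the shares were 5.35% higher and 7.45% lower, and for rescue minus knockdown 3.22% and 1.02%. With a log2 difference of at least 1 required as well, 194 genes were higher and 22 lower in rescue than in control. The median difference over all genes was -0.01, and 52.2% of genes had control and rescue libraries that did not overlap. The share of higher calls was 68.3%; after quantile normalization, 590 genes were higher and 465 lower, a share of 55.9%, and in fits without the mutant rescue libraries 885 and 538. The counts also moved with single libraries, which here and below were left out 1 at a time. Calls higher and lower numbered 344 and 125 without control replicate 1, 360 and 81 without control replicate 2, 413 and 111 without either knockdown library, 414 and 133 without rescue replicate 1, and 309 and 51 without rescue replicate 2. Without mutant rescue replicate 1 or 2 they numbered 885 and 537, or 884 and 533.

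**Figure D1:**
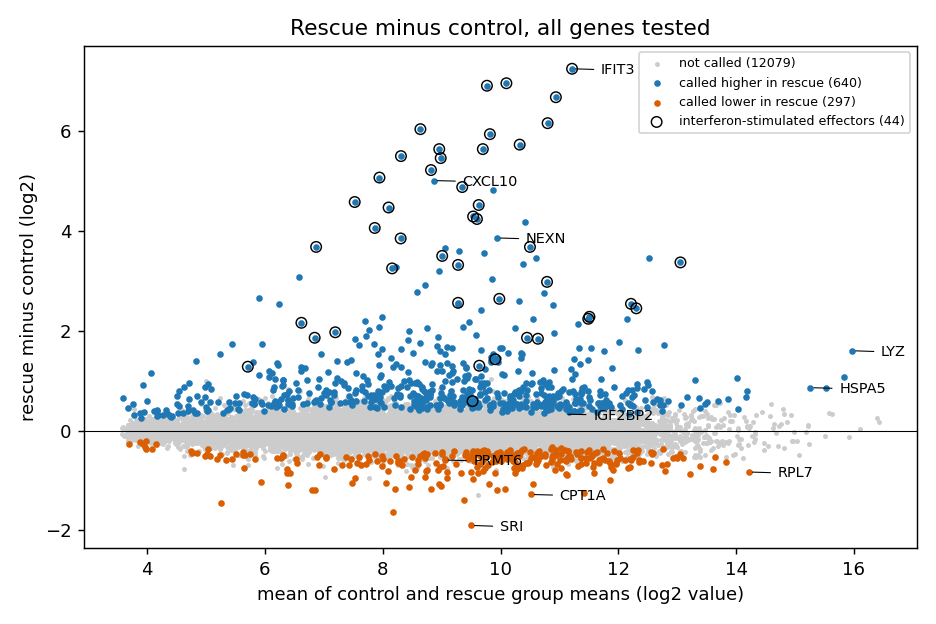
Rescue minus control (log2) for each of the 13016 genes tested against the mean of the 2 group means (log2 value), with the 640 genes called higher in blue, the 297 called lower in orange and the 44 interferon-stimulated effectors ringed. The ringed genes reach 7.25 at IFIT3, while the lowest called gene shown by name, SRI, lies at -1.90.

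The interferon response was the dominant difference. All 44 listed interferon-stimulated effectors passed the filter, also in both control libraries on their own, and all 44 rose. Their median difference was 3.76, against -0.01 over all genes and against 0.22 for the same genes in knockdown minus control. The mean log2 value of the list was 7.46 and 7.50 in the control libraries, 7.72 and 7.78 in knockdown and 11.37 and 11.41 in rescue. Summed over the list, the effectors made up 1240 and 1250 ppm of the control libraries and 15400 and 16900 ppm of the rescue libraries. Between 42 and 44 of the list were called in each fit that left out 1 library.

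The promoters of the 4 effectors with the largest increases are shown because interferon acts on its targets through a DNA element, the interferon-stimulated response element. They are RefSeq promoters in GRCh38.p14, 250 bases before to 50 bases after the annotated start, written along the gene. Capitals mark each match, on either strand, to the core of that element, searched as GAAA, any 2 bases and GAAA again, with overlapping matches counted.
IFIT3: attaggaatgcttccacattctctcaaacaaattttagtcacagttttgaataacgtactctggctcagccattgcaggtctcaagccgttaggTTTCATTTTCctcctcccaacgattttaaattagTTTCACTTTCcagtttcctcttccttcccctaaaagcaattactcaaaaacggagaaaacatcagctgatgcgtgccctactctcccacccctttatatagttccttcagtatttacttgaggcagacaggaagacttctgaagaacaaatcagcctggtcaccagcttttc
IFIT1: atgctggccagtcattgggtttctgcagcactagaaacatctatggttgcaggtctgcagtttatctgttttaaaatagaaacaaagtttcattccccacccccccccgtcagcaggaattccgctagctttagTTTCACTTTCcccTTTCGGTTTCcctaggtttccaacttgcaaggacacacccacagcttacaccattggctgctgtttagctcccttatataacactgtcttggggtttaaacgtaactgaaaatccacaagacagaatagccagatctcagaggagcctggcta
IFI27: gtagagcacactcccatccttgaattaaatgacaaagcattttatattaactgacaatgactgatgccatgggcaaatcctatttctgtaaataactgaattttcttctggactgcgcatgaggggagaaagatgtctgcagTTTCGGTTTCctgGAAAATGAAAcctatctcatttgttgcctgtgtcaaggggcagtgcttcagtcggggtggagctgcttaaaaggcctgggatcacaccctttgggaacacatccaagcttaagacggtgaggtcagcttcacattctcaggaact
IFI6: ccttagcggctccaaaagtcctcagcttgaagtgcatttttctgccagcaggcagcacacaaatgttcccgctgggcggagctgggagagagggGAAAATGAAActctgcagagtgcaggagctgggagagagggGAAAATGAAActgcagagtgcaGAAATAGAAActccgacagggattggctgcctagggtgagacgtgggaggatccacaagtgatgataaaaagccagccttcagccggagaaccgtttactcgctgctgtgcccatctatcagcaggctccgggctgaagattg

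IFIT3 lies at chr10:89327747-89328046 (plus strand), IFIT1 at chr10:89392373-89392672 (plus strand), IFI27 at chr14:94110486-94110785 (plus strand) and IFI6 at chr1:27672143-27672442 (minus strand), these being the windows printed. The matches began 156 and 122 bases before the start in IFIT3, 116 and 103 in IFIT1, 108 and 95 in IFI27, and 156, 115 and 93 in IFI6. A match was found in 3.57% of the 35116 promoters of this length in the RefSeq table. Among the effectors, 34 matched the table by symbol and 23 of these, or 67.6%, held a match, the one nearest the start beginning between 136 bases before and 11 bases after it. The share was 52.9% of 17 class I antigen presentation genes, 29.4% of 17 nucleic acid sensor genes, 5.26% of 19 interferon receptor and transducer genes, 13.6% of 22 monocyte genes and 6.56% of 61 ribosomal protein genes. Of 351 further called genes that rose outside the immune lists, 8.26% held one. Outside means only that a gene is not listed, and such a gene can still belong to the interferon response. A match is a run of letters and shows no binding.

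IFIT3, which encodes a protein of the family that binds foreign RNA ends and blocks its translation, had log2 values of 7.49 and 7.69 in control, 8.22 and 8.24 in knockdown, and 14.68 and 14.99 in rescue. Its difference from control was 7.25 (SE 0.12, adjusted p = 1.12e-08), a factor of 152. IFIT1, of the same family, stood at 6.59 and 6.65 in control against 13.43 and 13.73 in rescue, a difference of 6.96 (SE 0.12) or 124-fold. In both genes every rescue library lay far above every control and knockdown library.

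IFI27, a small membrane protein widely used as a marker of interferon exposure, had values of 6.15 and 6.48 in control and 13.22 and 13.23 in rescue, 120-fold higher. IFI6, of the same protein family, had 7.62 and 7.58 in control and 14.29 and 14.28 in rescue, 103-fold higher. The other largest increases were IFIT2 (6.16), IFITM1 (6.04), which restricts virus entry, OAS2 (5.94), OAS1 (5.73), OASL (5.64) and OAS3 (5.64), of the family of RNA-activated oligoadenylate synthetases, SIGLEC1 (5.50), a sialic acid receptor of macrophages, and IFITM3 (5.46). The log2 changes in the authors' deposited table were larger and ordered differently, at 9.42 for IFI27, 9.38 for SIGLEC1, 9.20 for IFIT1, 9.01 for IFIT3, 8.87 for IFITM1 and 8.38 for IFI6. For all 12 genes the SE lay between 0.11 and 0.19, and all 12 kept their call whichever library was left out. In knockdown minus control, 6 of these 12 were called higher, with OAS1 the highest at 1.02 and OAS2 at 0.87. The effector with the smallest difference was IFITM2, at 9.06 and 9.40 in control and 9.85 and 9.80 in rescue, a difference of 0.59 (SE 0.14, adjusted p = 0.0358).

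**Figure D2:**
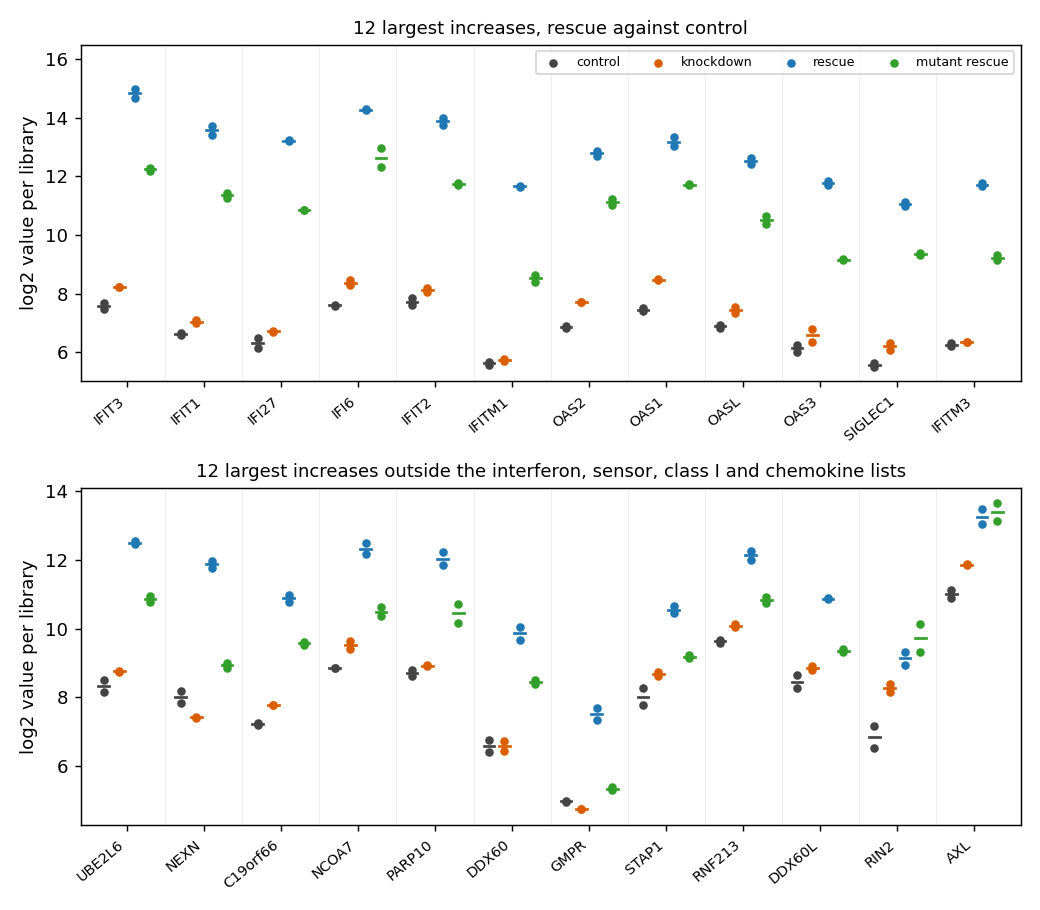
Log2 value of each library (points) with the group mean (bar) for control, knockdown, rescue and mutant rescue, in the 12 largest increases (above) and the 12 largest outside the interferon, sensor, class I and chemokine lists (below). In the upper panel control and knockdown lie close together and rescue lies 5.46 to 7.25 above control; RIN2 and AXL in the lower panel are the genes in which the mean of mutant rescue lies above that of rescue.

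Genes for interferons themselves had low values in all libraries. The 5 with an adjusted p under 0.05 in the authors' deposited table all stood highest in both rescue libraries. Of 21 listed interferon genes, 12 were not 0 in every library and 1, IFNA2 (chr9:21384254-21385388, minus strand), passed the filter. It passed through the rescue libraries, so its test is not independent of that choice. IFNA2 stood at 3.48 and 3.49 in control, 3.49 and 3.49 in knockdown, and 4.52 and 4.76 in rescue, a difference of 1.16 (SE 0.08, adjusted p = 4.63e-05). IFNB1, the interferon beta gene, had 2.99 and 2.99 in control, 3.03 and 2.99 in knockdown, and 3.50 and 3.67 in rescue. IFNL1, an interferon of the lambda type, had 2.92 and 2.93 in control and 3.53 and 3.52 in rescue, and IFNA1 had 2.86 in both control libraries and 3.49 and 3.47 in rescue. Each of these rescue values lay above all 6 other libraries, and the same held for IFNA8. It also held for IFNA13 (2.66 and 2.69 in rescue) and, by a very small margin, IFNA10, which are not among the 5.

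Such low values lie close together in the deposited scale, which makes differences look small. The authors' deposited table, which gives its own fold change, lists log2 changes of 8.97 for IFNA2, 7.90 for IFNB1, 7.88 for IFNL1, 7.93 for IFNA1 and 7.51 for IFNA8. The adjusted p in the authors' deposited table was 3.55e-07 for IFNA2, 5.72e-05 for IFNB1, 5.68e-05 for IFNL1, 4.62e-05 for IFNA1 and 0.000295 for IFNA8. IFNA13 has a log2 change of 7.16 there, in the authors' deposited table, and its adjusted p is 1. The alpha interferon genes are near-identical copies, so the split of reads among them is uncertain. IFNG, the gene of interferon gamma, stood at -2.09 in all 8 libraries.

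STAT2 and several IRF genes rose, and no such call was made for the 5 receptor genes tested. Of 25 listed receptors, transducers and feedback regulators, 23 were tested and 10 rose, none fell, and the median was 0.26 against 0.21 in knockdown minus control. Genes in the following sentences that fall outside the naming rule were chosen after their values were seen. IFNAR1 and IFNAR2, the receptor chains for type I interferon, differed by 0.15 (SE 0.11, adjusted p = 0.466) and 0.02 (SE 0.10, adjusted p = 0.952).

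STAT2 had values of 10.10 and 10.41 in control and 12.37 and 12.42 in rescue, a difference of 2.14 (SE 0.11, adjusted p = 8.26e-06). IRF9, its DNA-binding partner, rose by 2.78 (SE 0.10), and in both genes rescue lay above control with no overlap. IRF7, the factor that amplifies alpha interferon transcription, rose by 3.19 (SE 0.13), and IRF1 by 1.62 (SE 0.10). USP18, which removes ISG15 from proteins and damps the receptor, had 7.39 and 7.55 in control, 7.42 and 7.38 in knockdown, and 12.31 and 12.27 in rescue, a factor of 28.3. Its groups of control and knockdown overlapped, and rescue stood apart from both.

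Sensors of nucleic acid rose as well. Of 24 listed sensors and adaptors, 23 were tested and 16 rose, with a median of 0.81 against 0.14 in knockdown minus control. Only 22 of the 23 reached 1 ppm in both control libraries. DDX58, the RNA sensor RIG-I, stood at 7.95 and 7.92 in control and 11.44 and 11.55 in rescue, a difference of 3.56 (SE 0.13, adjusted p = 4.82e-07). IFI16, a sensor of DNA, rose by 3.59 (SE 0.11), DHX58, a regulator of RNA sensing, by 3.08 (SE 0.15), and EIF2AK2, the kinase PKR that halts translation on double-stranded RNA, by 2.76 (SE 0.11). The adaptor MAVS, through which RIG-I signals, differed by 0.09 and was not called. The count of 16 was 10 without control replicate 2 or without rescue replicate 2.

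Class I is the pathway that shows cell-internal peptides to T cells. Of 20 class I genes tested, 13 rose and none fell, with a median of 0.69. PSMB9, a subunit of the immunoproteasome, stood at 9.80 and 10.05 in control and 11.94 and 11.82 in rescue, a difference of 1.96 (SE 0.11, adjusted p = 1.14e-05). The peptide transporter genes TAP1 and TAP2 rose by 2.59 (SE 0.15) and 1.81 (SE 0.14), and HLA-E, a class I chain read by natural killer cells, by 1.72 (SE 0.11). B2M, the shared light chain, rose by 1.07 (SE 0.13). The heavy chains HLA-B and HLA-C differed by 0.46 (SE 0.19) and 0.71 (SE 0.21) and were not called by limma. In the authors' deposited table both were higher, by 0.55 (adjusted p = 0.0314) and 0.87 (adjusted p = 0.000511). HLA-B and HLA-C are similar in sequence, so their reads may be shared. That table called 17 class I genes higher, and limma called 18 without the mutant rescue libraries. The count of 13 was 8 without rescue replicate 2. Of 12 class II genes tested, 1, the lysosomal protease gene CTSS, rose, with a list median of 0.02. Median centring moved that median to -0.01.

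Of 26 chemokine, cytokine and NF-kB feedback genes tested, 8 rose and none fell, with a median of 0.24. Only 24 of the 26 reached 1 ppm in both control libraries. CXCL10, a chemokine for T cells, had values of 6.20 and 6.52 in control, 5.72 and 5.56 in knockdown, and 11.13 and 11.61 in rescue. It fell by 0.72 in knockdown (adjusted p = 0.037) and higher in rescue by 5.01 (SE 0.18, adjusted p = 5.91e-07). TNFSF10, the death ligand TRAIL, rose by 2.91 (SE 0.13), CXCL11, which shares the receptor of CXCL10, by 2.65 (SE 0.20), and IL1RN, the antagonist of the interleukin 1 receptor, by 2.08 (SE 0.10). TNF, IL1B and CXCL8, inflammatory mediators chosen after their values were seen, differed by -0.14, -0.09 and -0.08 and were not called.

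In all 12 of the largest increases outside these lists, both mutant rescue libraries also lay above both control libraries. The lists are not complete, so these 12 are not a group apart from the interferon response. UBE2L6, the conjugating enzyme of ISG15, stood at 8.15 and 8.51 in control and 12.55 and 12.46 in rescue, a factor of 18. NEXN, an actin-binding protein, had 7.83 and 8.18 in control, 7.44 and 7.41 in knockdown, and 11.78 and 11.96 in rescue. It fell by 0.58 in knockdown (adjusted p = 0.0285) and was 14.6-fold higher in rescue than in control.

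C19orf66, an inhibitor of ribosomal frameshifting with antiviral activity, rose by 3.66 (SE 0.11), NCOA7, a nuclear receptor coactivator, by 3.46 (SE 0.14), PARP10, a mono-ADP-ribosyltransferase, by 3.33 (SE 0.19), and DDX60, a helicase, by 3.28 (SE 0.18). Then came GMPR, which recycles guanine nucleotides (2.53), STAP1, a signalling adaptor (2.53), RNF213, a large ubiquitin ligase (2.51), and DDX60L (2.41). RIN2, an exchange factor for RAB5, stood at 7.18 and 6.52 in control, 8.16 and 8.39 in knockdown, and 8.95 and 9.32 in rescue. AXL, a receptor tyrosine kinase, stood at 10.90 and 11.14, 11.85 and 11.88, and 13.05 and 13.47 in the same order. In both genes the order was control, knockdown, rescue with no overlap. RIN2 rose by 2.28 (SE 0.29) and AXL by 2.24 (SE 0.19), and all 12 genes kept their call whichever library was left out.

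A different set of genes was off the control level in both the knockdown and the rescue libraries. The lists of the 10 strongest knockdown decreases and 10 strongest increases come from an earlier look at these libraries and share the control libraries with the comparison, so their direction is not independent evidence. Of the 10 decreases, 9 were also lower in rescue than in control, with a median of -1.11 against -1.45 for the knockdown. Of the 10 increases, all 10 were also higher in rescue, with a median of 1.46 against 2.03.

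SRI (chr7:88205118-88226993, minus strand), which encodes the calcium-binding protein sorcin, had values of 10.37 and 10.52 in control, 8.25 and 8.29 in knockdown, and 8.62 and 8.47 in rescue. It fell by 1.90 (SE 0.12, adjusted p = 2.25e-05), to a level 3.73-fold below control, and differed from knockdown by 0.28 (adjusted p = 0.237). PTPMT1 (chr11:47565430-47573461, plus strand), a mitochondrial phosphatase of cardiolipin synthesis, had 8.91 and 9.09 in control, 7.30 and 7.34 in knockdown, and 7.48 and 7.25 in rescue. It fell by 1.64 (SE 0.13, adjusted p = 9.9e-05), and its rescue libraries lay on either side of the knockdown libraries. In both genes the rescue libraries stood near knockdown and far from control.

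VAMP8, a SNARE of endosomes and secretory granules, fell by 1.25 (SE 0.15), RASGRP2, an activator of the small GTPase RAP1, by 1.17 (SE 0.10), and ALDH1A3, a retinaldehyde dehydrogenase, by 1.14 (SE 0.16). MGST2, a microsomal glutathione transferase, fell by 1.08 (SE 0.12), and LMAN1, a cargo receptor of the secretory pathway, by 0.98 (SE 0.13). None of these 5 was called in rescue minus knockdown, where the differences were 0.29, 0.25, 0.30, 0.31 and 0.41.

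G3BP2, a stress granule protein, fell by 0.88 (SE 0.12) relative to control and was higher than in knockdown by 0.60 (adjusted p = 0.0277). FADD, the adaptor of death receptors, fell by 0.79 (SE 0.13) and lost the call without either control library or without rescue replicate 2, at adjusted p up to 0.0907. HENMT1, which methylates small RNA ends, was the member not called, at -0.57 (SE 0.28, adjusted p = 0.282); its knockdown libraries stood at 8.09 and 8.96.

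**Figure D3:**
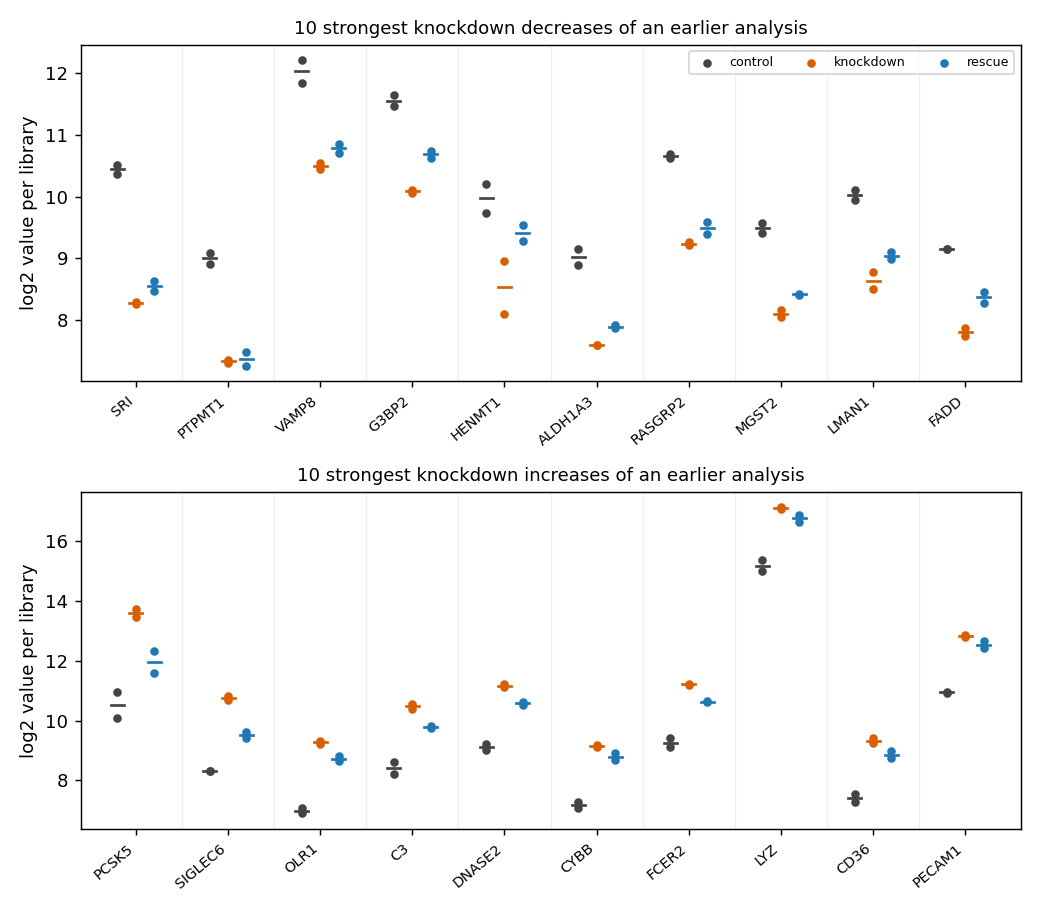
Log2 value of each library (points) with the group mean (bar) in control, knockdown and rescue for the 10 strongest knockdown decreases (above) and increases (below) of an earlier analysis. Rescue lies between control and knockdown in the mean of every gene shown, and at the knockdown level in PTPMT1, where rescue stands at 7.48 and 7.25 and knockdown at 7.30 and 7.34.

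Among the increases, PCSK5, a proprotein convertase, had values of 10.09 and 10.95 in control, 13.48 and 13.74 in knockdown, and 11.60 and 12.32 in rescue. It was 1.44 above control (SE 0.31, adjusted p = 0.0261) and 1.65 below knockdown (-1.65, adjusted p = 0.0213); without control replicate 1 or rescue replicate 2 the difference from control was no longer called, at adjusted p up to 0.169, and in the authors' deposited table its adjusted p was 0.0855. SIGLEC6, a sialic acid receptor, stood at 8.32 and 8.30 in control, 10.82 and 10.70 in knockdown, and 9.41 and 9.62 in rescue, again between the groups. It was 1.20 above control (SE 0.16) and lower than knockdown (-1.24, adjusted p = 0.00279).

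FCER2, the low-affinity IgE receptor, rose by 1.38 (SE 0.11) relative to control and was lower than knockdown (-0.57, adjusted p = 0.025). PECAM1, an adhesion molecule of leukocytes and endothelium, rose by 1.60 (SE 0.12), CD36, a scavenger receptor, by 1.45 (SE 0.15), and C3, the central complement protein, by 1.36 (SE 0.23). None of these 3 was called against knockdown, with differences of -0.29, -0.47 and -0.70. C3 lost the call against control without control replicate 2 or either rescue library, at adjusted p up to 0.0898. PECAM1 is also on the list of epithelial and stromal markers, whose summed level was 150 to 160 ppm in control and 385 to 458 ppm in rescue; of its 3 other tested members, KRT18 fell by 0.55, a call lost without any single control, knockdown or rescue library at adjusted p up to 0.202, and 2 were not called.

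MOLM13 carries features of the monocyte lineage. Of 27 monocyte and macrophage genes tested, 15 rose and 1, S100A9, fell, with a median of 0.57. The median of the same genes in knockdown minus control was 0.63. Both medians use the same control libraries, so their likeness is partly built in. LYZ, CYBB and OLR1 are also on the list of strongest knockdown increases. LYZ, which encodes lysozyme, had values of 14.99 and 15.36 in control, 17.13 and 17.07 in knockdown, and 16.66 and 16.88 in rescue, 3.02-fold above control. CYBB, the catalytic subunit of the phagocyte oxidase, stood at 7.07 and 7.27, 9.18 and 9.13, and 8.68 and 8.92 in the same order, and rose by 1.63 (SE 0.15). The rescue libraries of both genes lay just below those of knockdown, and neither difference from knockdown was called (-0.33 and -0.36).

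OLR1, a receptor for oxidized lipoprotein, rose by 1.74 (SE 0.18), CSF1R, the receptor for macrophage growth factor, by 1.54 (SE 0.14), and CD68, a lysosomal glycoprotein of macrophages, by 0.98 (SE 0.10). CD14, the lipopolysaccharide coreceptor, was near the low end of the scale at 3.99 and 4.25 in control and 4.09 and 4.09 in rescue. S100A9, an abundant protein of neutrophils and monocytes, fell by 0.67 (SE 0.16, adjusted p = 0.0392). CD14 and S100A9 were chosen after their values were seen. Of 16 granule and progenitor genes, CEBPE, a factor of granulocyte maturation, rose by 0.74 (SE 0.11) and MPO by 0.43 (SE 0.10). CTSG, the granule protease cathepsin G, fell by 0.86 (SE 0.12) and was lower than control by 0.82 in knockdown. MPO alone of the 3 was above knockdown (0.62, adjusted p = 0.00856).

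Lysosomal genes include CTSD and CTSS, which also stand on the monocyte list. Of 28 tested, 15 rose and none fell, with a median of 0.47 against 0.65 for the knockdown. These medians too share the control libraries, and DNASE2 is also on the list of strongest knockdown increases. DNASE2, the lysosomal nuclease, had values of 9.01 and 9.21 in control, 11.13 and 11.21 in knockdown, and 10.64 and 10.51 in rescue. It was 1.47 above control (SE 0.12, adjusted p = 0.000116) and below knockdown (-0.59, adjusted p = 0.029). GRN, the precursor of the granulins, rose by 1.05 (SE 0.10), CTSS, the cysteine protease cathepsin S, by 0.98 (SE 0.12), and GLB1, the lysosomal beta-galactosidase, by 0.70 (SE 0.10). The count of 15 was 6 without control replicate 1 or rescue replicate 1, 8 without control replicate 2, 9 without either knockdown library and 7 without rescue replicate 2.

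**Figure D4:**
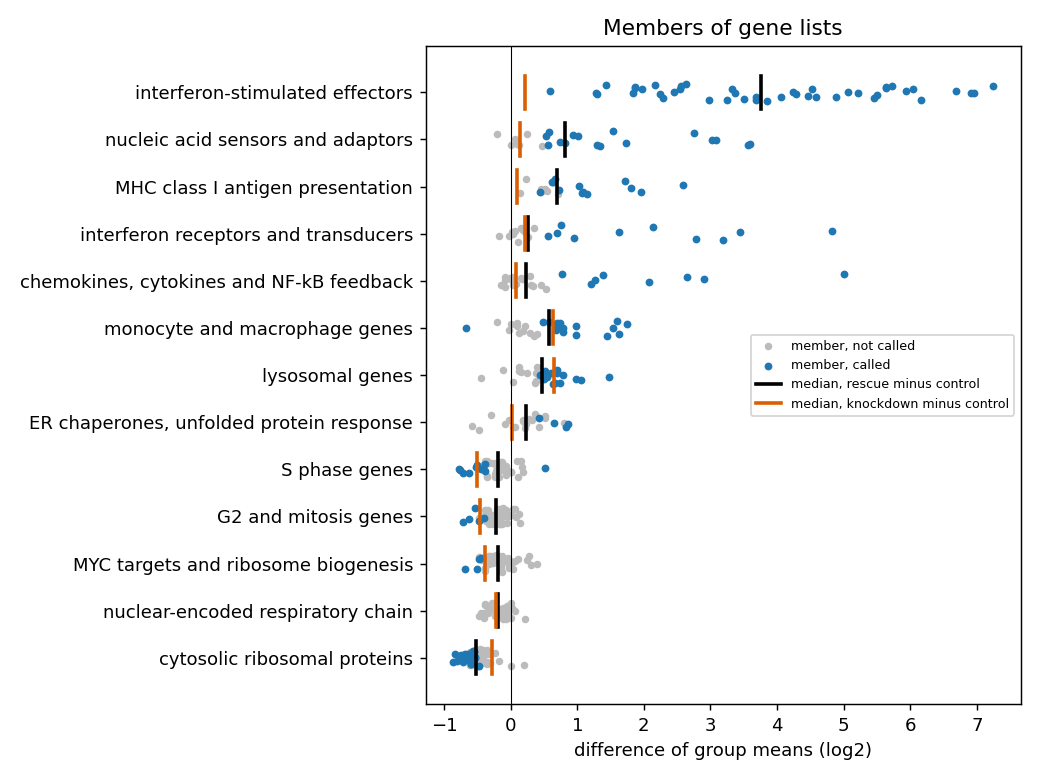
Rescue minus control (log2) for each tested member of 13 gene lists, called members in blue, with the list median in black and the median of knockdown minus control in orange. The medians are far apart for the interferon-stimulated effectors (3.76 against 0.22) and close for monocyte genes (0.57 against 0.63). Both lie below 0 for S phase genes (-0.18 against -0.51) and ribosomal proteins (-0.53 against -0.29). Both medians of a list use the same control libraries.

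Among the 12 largest decreases, CPT1A, HMGCS1 and PFDN6 were also called lower than in knockdown. In LRRC58, GTF2A1 and HIST1H1B both rescue libraries lay below both knockdown libraries as well, by differences of -0.19, -0.51 and -0.19 that were not called. CPT1A (chr11:68754620-68844410, minus strand), the enzyme that admits long-chain fatty acids to mitochondria, had values of 10.91 and 11.40 in control, 11.40 and 11.40 in knockdown, 9.77 and 9.98 in rescue, and 10.68 and 11.08 in mutant rescue. It fell by 1.28 relative to control (SE 0.18, adjusted p = 0.00351), a factor of 2.43, and by 1.52 relative to knockdown (adjusted p = 0.00176). The rescue libraries were the lowest of all 8. Of 22 genes of fatty acid oxidation, the only other one called was HADH, a dehydrogenase of beta-oxidation, at -0.44, and that call was lost without any single control, knockdown or rescue library, at adjusted p up to 0.273.

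HMGCS1, which makes the precursor of sterols, had 10.52 and 10.54 in control, 9.74 and 9.86 in knockdown, and 9.28 and 9.40 in rescue, a stepwise order with no overlap. It fell by 1.19 (SE 0.10, adjusted p = 0.000136). Of 24 sterol genes tested, 2 rose and HMGCS1 alone fell. MSMO1, a sterol demethylase, rose by 0.52 and lost its call without control replicate 1 or either rescue library, at adjusted p up to 0.0788. PFDN6, a subunit of the prefoldin chaperone, had 8.71 and 8.88 in control, 8.42 and 8.51 in knockdown, 7.53 and 7.73 in rescue, and 7.79 and 7.92 in mutant rescue. It fell by 1.17 (SE 0.13, adjusted p = 0.000793).

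LRRC58, a leucine-rich repeat protein, fell by 1.39 (SE 0.13), GTF2A1, a subunit of the general factor TFIIA, by 1.20 (SE 0.16), MIEN1, a membrane-anchored regulator of cell migration, by 1.17 (SE 0.13), and HIST1H1B, a linker histone, by 1.19 (SE 0.25). In knockdown minus control the same 4 genes were at -1.20, -0.70, -1.31 and -0.99, all called. HIST1H1B is the gene of the 12 that lost its call without a single library: control replicate 1, either knockdown library or either rescue library, at adjusted p up to 0.161. Its control libraries stood at 7.85 and 6.94, and histone messages mostly lack the poly(A) tail by which this RNA was selected.

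**Figure D5:**
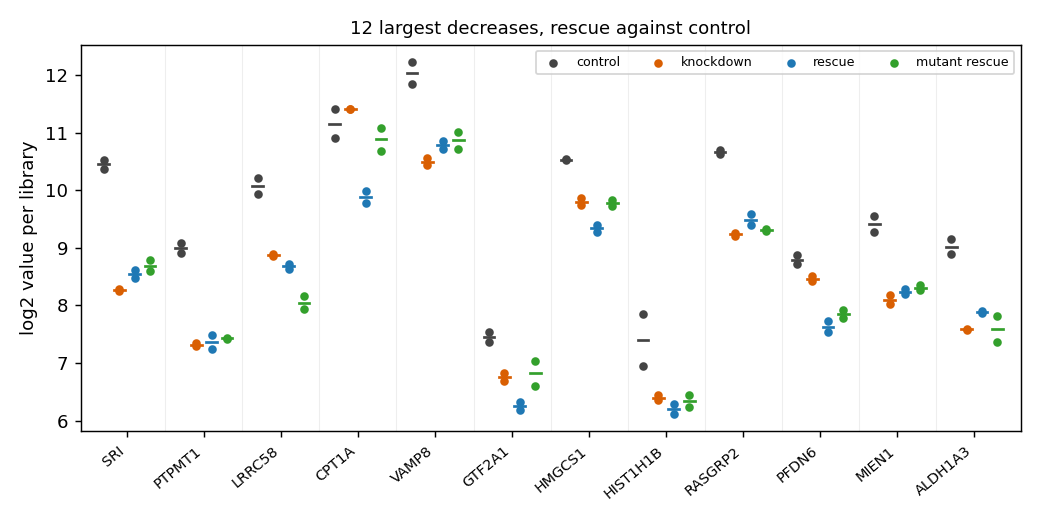
Log2 value of each library (points) with the group mean (bar) in control, knockdown, rescue and mutant rescue for the 12 largest decreases. Rescue lies near knockdown in SRI, PTPMT1 and MIEN1 and well below it in CPT1A, where rescue stands at 9.77 and 9.98 and knockdown at 11.40 in both libraries.

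Ribosomal protein genes were lower in rescue by a small and broadly shared amount. Of 76 tested, 25 fell and none rose, 74 had a negative difference, and the median was -0.53 against -0.29 in knockdown minus control. RPL7 had values of 14.51 and 14.75 in control, 14.38 and 14.43 in knockdown, and 13.79 and 13.81 in rescue. It fell by 0.83 (SE 0.11, adjusted p = 0.00334) and lay below knockdown as well (-0.60, adjusted p = 0.0237). RPL23 fell by 0.87 (SE 0.15), RPS27A by 0.72 (SE 0.14) and RPS10 by 0.58 (SE 0.11); the 3 lost their call without rescue replicate 2, and RPS27A and RPS10 also without control replicate 2, at adjusted p up to 0.135.

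The control replicates differed in this list, with means over its genes of 12.02 and 12.30, against 11.73 and 11.56 in rescue. The count of 25 was 1 without rescue replicate 2, 2 without control replicate 2, 7 without either knockdown library, 12 without rescue replicate 1 and 57 without either mutant rescue library. It was 58 in the authors' deposited table and 44 after quantile normalization. The list median stayed between -0.66 and -0.38 over the fits that left out 1 library. Ribosomal protein genes have many processed pseudogenes with which reads may be shared.

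The medians of the cell division lists lay between knockdown and control. Of 48 S phase genes, 9 fell and 1, the transcription factor gene E2F1, rose (0.52), and the median was -0.18 against -0.51 for the knockdown. RFC3, a subunit of the clamp loader, had values of 11.31 and 11.33 in control, 9.95 and 10.05 in knockdown, and 10.48 and 10.59 in rescue, with rescue between the groups. It fell by 0.78 (SE 0.09, adjusted p = 0.00145) and was higher than in knockdown by 0.54 (adjusted p = 0.0153). GINS2 and GINS4, of the replicative helicase, fell by 0.76 and 0.71. In GINS2 rescue, at 9.93 and 9.86, lay between control and knockdown (9.44 and 9.39). In GINS4 rescue, at 9.90 and 9.93, lay below knockdown (10.23 and 10.21). GINS4 lost its call without control replicate 2 (adjusted p = 0.0506). The count of 9 was 4 without control replicate 1, 3 without control replicate 2, 4 without either knockdown library, 5 without rescue replicate 1 and 4 without rescue replicate 2.

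Of 54 genes of G2 and mitosis, 5 fell and none rose, with a median of -0.23 against -0.46. CENPE, a kinetochore motor, fell by 0.71 (SE 0.12), UBE2C, a ubiquitin carrier of the anaphase-promoting complex, by 0.63 (SE 0.11), CDK1, the mitotic kinase, by 0.54 (SE 0.10), and CENPF, a kinetochore protein, by 0.47 (SE 0.10). Each lost its call without rescue replicate 2 and without 1 or both control libraries, at adjusted p up to 0.158, and CDK1 also without rescue replicate 1 and CENPF without any single control, knockdown or rescue library. The count of 5 was 2 without control replicate 1, 1 without control replicate 2, 3 without either knockdown library, 2 without rescue replicate 1, 0 without rescue replicate 2 and 12 without either mutant rescue library.

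Of 40 MYC targets and genes of ribosome biogenesis, 4 fell, where 2.28% of all genes tested were called lower. The list median was -0.19 against -0.39. MRTO4, a factor of large subunit assembly, fell by 0.68 (SE 0.10) and kept its call whichever library was left out. LYAR, NOP56 and PA2G4, nucleolar and growth proteins, fell by 0.50, 0.47 and 0.45 and each lost its call without either control library, either knockdown library or rescue replicate 2, at adjusted p up to 0.238. Among 16 genes of the HOXA and MEIS1 program, SATB1, a chromatin organizer, fell by 0.55. CDK6, a G1 kinase, and MEF2C, a transcription factor, each fell by 0.64. No other member was called, so neither MEIS1 nor any tested HOXA gene was. The list median was -0.14, with 6 members positive and 10 negative. SATB1, CDK6 and MEF2C all lost the call without control replicate 1 or rescue replicate 2, and some without other libraries, at adjusted p up to 0.185.

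The endoplasmic reticulum raises its chaperones when its folding load grows. Of 24 such genes tested, 4 rose, with a median of 0.22 against 0.01. HSPA5, the chaperone BiP, had values of 14.81 and 14.86 in control, 14.75 and 14.73 in knockdown, and 15.65 and 15.73 in rescue, a difference of 0.86 (SE 0.10, adjusted p = 0.00131) that stood clear of both other groups. PDIA4, a disulfide isomerase, rose by 0.83 (SE 0.15), CRELD2, a secreted stress protein, by 0.65 (SE 0.13), and HERPUD1, of the degradation pathway, by 0.43 (SE 0.09). HSPA5, PDIA4 and CRELD2 were also above knockdown, by 0.96, 0.87 and 0.76. PDIA4 lost its call without control replicate 2 or either rescue library, CRELD2 without rescue replicate 1 or any control or knockdown library, and HERPUD1 without control replicate 1, either knockdown library or either rescue library, at adjusted p up to 0.152. Cytosolic heat shock genes differed in sign: of 18, DNAJB1 and FKBP4, cochaperones of HSP70 and HSP90, fell by 0.65 and 0.55, and FKBP4 lost its call without either control library, either knockdown library or rescue replicate 2, at up to 0.148.

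Several single genes of stress and survival pathways moved in small lists. PMAIP1, the death protein NOXA, had 10.92 and 11.05 in control, 10.78 and 10.88 in knockdown, and 11.78 and 11.73 in rescue, a rise of 0.77 (SE 0.12, adjusted p = 0.00668) that was lost without control replicate 1 (adjusted p = 0.0555). BIK, of the same BCL2 family, fell by 0.95 (SE 0.14) and was not called without control replicate 2 or rescue replicate 2, at adjusted p up to 0.0523. WARS, the tryptophan tRNA synthetase, fell by 0.54 in knockdown and rose by 0.58 in rescue relative to control; the latter call was lost without either control library or rescue replicate 2, at adjusted p up to 0.0947. Of 22 amino acid response genes, WARS, ATF3 and NUPR1 rose, and of 24 immediate early genes DUSP6, ATF3 and EGR2. DUSP6, the phosphatase of ERK kinases, rose by 0.81 (SE 0.09, adjusted p = 0.0011) and kept its call whichever library was left out. ATF3, a stress-induced factor, and EGR2, an early growth response factor, each rose by 0.65, and NUPR1, a stress protein of the nucleus, by 0.58. ATF3, EGR2 and NUPR1 lost the call without either control library, among others, at adjusted p up to 0.227. CDKN1A, the cell cycle inhibitor p21, was 0.58 above control and the only one called of 23 p53 targets. It lost the call without control replicate 1 or either rescue library, at differences of 0.52 to 0.58. In knockdown minus control CDKN1A, EGR2 and NUPR1 were also called higher, at 0.91, 0.65 and 0.54, and BIK lower, at -0.65. DUSP6 (0.21) and ATF3 (-0.17) were not called there.

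Of 27 genes of glycolysis and the hypoxia response, 4 fell and 1 rose. P4HA1, a collagen hydroxylase, fell by 0.66 (SE 0.12), PGK1 and ALDOA, glycolytic enzymes, by 0.54 and 0.44, and BNIP3L, a receptor for removal of mitochondria, rose by 0.53 (SE 0.09). Without rescue replicate 2 none of these 4 was called, at adjusted p up to 0.227 over the fits that left out 1 library. MBOAT7, an acyltransferase that places arachidonate in phosphatidylinositol, rose by 0.74 (SE 0.11, adjusted p = 0.00621) and was the only one called of 13 lysophospholipid genes. It stood at 9.29 and 9.29 in control, 10.03 and 10.05 in knockdown, and 10.16 and 9.90 in rescue. SLC38A1, a carrier and the only one called of 16 glutamine genes, fell by 0.60 (SE 0.11), was above knockdown by 0.52 (adjusted p = 0.038), and lost its call against control without control replicate 1 or either rescue library, at adjusted p up to 0.0864. Of 11 arginine methyltransferase genes, PRMT6 and the cofactor CLNS1A (-0.54, SE 0.10) fell; the CLNS1A call was lost without control replicate 2 or any knockdown or rescue library, at up to 0.0964.

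No member was called by limma in 3 lists of the RNA methylation and respiratory machinery. Of 25 m6A writers, erasers and readers, 4 had an unadjusted p under 0.05 and 0 were called in the authors' deposited table; HNRNPA2B1, an m6A-linked RNA-binding protein, differed by -0.35 (SE 0.13, adjusted p = 0.155). Of 38 nuclear-encoded respiratory chain genes, 10 had an unadjusted p under 0.05 and 2 were called in the authors' deposited table, with a median of -0.19. Of 13 mitochondrially encoded genes, 2 had an unadjusted p under 0.05 and 0 were called in the authors' deposited table; their median of -0.15 lay between -0.39 and 0.07 over the fits that left out 1 library.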

How the data were processed

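Polyadenylated RNA of 8 MOLM13 libraries in 4 groups of 2 had been sequenced. The authors normalized the library values across the 8 libraries and deposited them as log2 values in a table that, per the file headers, HOMER's getDiffExpression.pl wrote. It also holds the authors' log2 changes and p-values, deposited for each pair of groups; the sources used here do not give their model. HOMER, kallisto, Trim Galore and the build GRCh38 are named, without versions, in the submitters' processing notes. Of 35370 genes, 1 has no symbol, 26 have a number in its place and 10936 named ones are 0 in every library. No column of another series was present.

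Groups and replicate numbers came from the sample titles. Values entered limma 3.58.1 (R 4.3.3) as deposited, without pseudocount, where the design had foreseen counts or TPM. All 8 libraries shared 1 group-mean model with 4 residual degrees of freedom, empirical Bayes moderation and a mean trend, and Benjamini-Hochberg adjusted p-values under 0.05 over 13016 genes were called. Every adjusted p in the text is from limma unless the authors' deposited table is named. Data for rescue minus control were also simulated with normal noise for 13016 genes, 100 of them changed by 0.5 log2 and 100 by 1 log2. The share of changed genes recovered was 25% at 0.5 log2 and 78% at 1 log2, and 5.5% of calls were unchanged genes. Recovery depends on how many genes change, so these shares are not the power of the real comparison. The 37 gene lists and the naming rule were chosen with earlier results of these data known. The rule names the genes of the series title, the 12 largest called increases and decreases and the 12 largest increases outside the immune lists (libraries not overlapping, higher group at least 5 ppm), and, from each list, the called members of smallest adjusted p, 4 at most, otherwise the highest member, with all members of both knockdown lists. Positions are from GENCODE release 29 (GRCh38), promoters from RefSeq (GRCh38.p14). Some genes that the rule names are not reported here. Depth is unknown, so 2 libraries per group set the precision and no counting error can be given.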

Additional observations from a re-analysis of the deposited data

Results flagged for a closer look

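The interferon-stimulated effectors were also above control in the mutant rescue libraries. Those libraries enter the comparison of rescue with control through the authors' normalization, the filter and the estimate of the spread. The mean log2 value of the effectors was 9.74 in mutant rescue replicate 1 and 9.75 in mutant rescue replicate 2. Control stood at 7.46 and 7.50 and rescue at 11.37 and 11.41. The part of the construct, the infection and the protein in this was not tested.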

How the results depend on the processing

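Depth is unknown and each group has 2 libraries, so small differences in the middle of the range were the least stable. Of 123 named genes called, 81 kept their call in every fit that left out 1 library; 38 lost it without rescue replicate 2, 30 without each control library in turn. Over those fits the counts ran from 309 to 885 for genes higher, 51 to 537 for genes lower, 8 to 18 for class I, 10 to 18 for sensors, 6 to 19 for lysosomal genes, 1 to 57 for ribosomal proteins, 3 to 11 for S phase and 0 to 12 for G2 and mitosis. NKG7 and EPOR, never called, changed sign, with differences of -0.174 to 0.075 and -0.122 to 0.073. With a log2 difference of at least 1 required, 194 genes were higher and 22 lower, with 6 receptor and transducer, 10 sensor, 8 class I, 5 monocyte and 2 lysosomal genes higher and 0 ribosomal, 0 S phase and 0 mitotic genes lower. Without the filter on low values, 135 genes were lower, with 9 lysosomal genes higher and 6 ribosomal, 4 S phase and 3 mitotic genes lower. With only the control and rescue libraries, 183 genes were lower, 5 of them S phase and 3 mitotic. Without the mutant rescue libraries, 538 were lower, 57 of them ribosomal and 12 mitotic. After quantile normalization, 465 were lower, 44 ribosomal and 9 mitotic. The authors' deposited table called 58 ribosomal genes lower. The cause of these shifts was not tested. Replicate numbers are only numbers here (correlation of deviations of control and rescue 0.07); with a replicate block, 697 genes were higher and 313 lower. Interferon-stimulated effectors were called in 42 to 44 cases in every fit run.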
